A study of Homo sapiens with 26 samples.

Results

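EGF and dexamethasone (DEX, a synthetic glucocorticoid) were compared directly in MCF10A cells during the first hour of treatment. The comparison takes 12 of the 26 arrays of the series: the 6 arrays labelled EGF and the 6 labelled DEX at 20, 40 and 60 min, 2 arrays for each agent at each time, matched by time. MCF10A is a non-tumorigenic human mammary epithelial cell line that needs EGF to grow. The cells had been grown in medium that holds EGF, hydrocortisone, insulin, cholera toxin and horse serum, were starved overnight, and then received either EGF at 10 ng/ml or DEX at 100 nM, each without the other. The series also holds 2 untreated arrays and arrays treated with both agents or for longer. The untreated arrays are given below as a description only, so the differences here are between the agents and not from a shared baseline. The labels number the 2 arrays of a group but do not say whether they are separate cultures, so p-values measure the spread between these arrays, which may be technical.

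EGF binds a receptor tyrosine kinase at the cell surface, EGFR, and within minutes activates the RAS to ERK kinase cascade. ERK phosphorylates transcription factors already bound at immediate early genes such as EGR1 and FOS, and these genes are transcribed without new protein synthesis. DEX crosses the membrane and binds the glucocorticoid receptor (GR), which moves to the nucleus, binds DNA and switches on its targets, among them the leucine zipper gene TSC22D3, also called GILZ. In epithelial cells GR is known to restrain growth factor and inflammatory signalling. Levels are given below as the log2 intensity of a gene, summarised from its probesets, and a difference is always the EGF level minus the DEX level on the log2 scale, so that positive values mean higher with EGF. A difference of 1 is a doubling of intensity.

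The arrays were alike in brightness. Between 61.1% and 62.7% of probesets lay above the background on each of the 12 arrays, and array medians ran from 5.28 to 5.38, with both DEX arrays at 60 min at the lower end. Pairwise correlations across probesets were 0.881 to 0.95. The cells carried the pattern of a basal mammary line: all 14 basal markers lay above the stricter background of 5.97, with a median level of 9.81, as did 7 of 13 luminal markers, 1 of 12 leukocyte and endothelial markers and 1 of 10 fibroblast markers. The mean level of the basal markers was 9.54 to 9.79 on the EGF arrays and 9.53 to 9.72 on the DEX arrays, and that of the leukocyte and endothelial markers was 4.46 to 4.61 and 4.50 to 4.64.

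Averaged over the 3 times, 105 genes had higher levels with EGF and 43 with DEX, of 16559 genes tested with limma (Benjamini-Hochberg adjusted p under 0.05 and at least 1.5-fold). These are 0.634% and 0.26% of the genes tested. EGR3, a zinc finger factor of the immediate early class, had the largest EGF-higher difference, 6.96-fold, and RGS2, which shortens G protein signalling, the largest DEX-higher difference, 6.18-fold. In 29 of the EGF-higher and 10 of the DEX-higher genes the mean difference was at least 2-fold. The 6 EGF and 6 DEX arrays did not overlap in 65 of the 105 and 23 of the 43 genes, where 3.4% of all genes tested had no overlap. The median difference of all genes was 0.03. In these bulk samples, fewer cells of a type and less RNA per cell cannot be told apart.

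Among the EGF-higher genes were many immediate early transcription factors. Of 31 measured members 15 were higher with EGF and none with DEX, and their median difference was 0.484, against 0.03 for all genes. Of all genes tested 0.634% were higher with EGF. Members of this and the other gene lists were chosen with earlier results of these data known, so list counts and medians are a description. EGR3 lay at 8.56 and 8.39 at 20 min, 9.12 and 9.20 at 40 min and 9.23 and 8.86 at 60 min with EGF and at 6.29 and 5.79 at 20 min, 6.50 and 5.69 at 40 min and 6.53 and 5.77 at 60 min with DEX. The arrays of the agents were far apart at every time, and the DEX arrays lay around the untreated arrays, at 6.28 and 5.84. The mean difference was 2.80 ± 0.16 (SE; adjusted p = 2.03e-06). NR4A1, an orphan nuclear receptor, was at 7.91 and 7.87 at 20 min, 8.46 and 8.44 at 40 min and 8.43 and 7.84 at 60 min with EGF, against 6.01 to 6.46 over the 6 DEX arrays. Its groups did not overlap, and the difference of 1.95 ± 0.10 (SE, adjusted p = 7.69e-07) was made of 1.80 at 20 min, 2.31 at 40 min and 1.74 at 60 min, a change with time that did not pass the test (adjusted p = 0.684). IER2, a nuclear protein of the same class, ranged over 7.90 to 8.77 with EGF and 6.37 to 6.89 with DEX. EGR1, the best known member, was bright with both agents, 11.21 to 12.08 with EGF and 8.83 to 10.49 with DEX, with a difference of 1.81 ± 0.20 (SE, adjusted p = 0.00038). JUNB and FOSL1, subunits of the AP-1 factor, differed by 1.59 ± 0.12 and 1.57 ± 0.11 (SE). HES1, a repressor best known from Notch signalling, differed by 1.65 ± 0.14 (SE), from 7.76 to 8.50 with EGF to 5.60 to 7.11 with DEX.

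**Figure D1:**
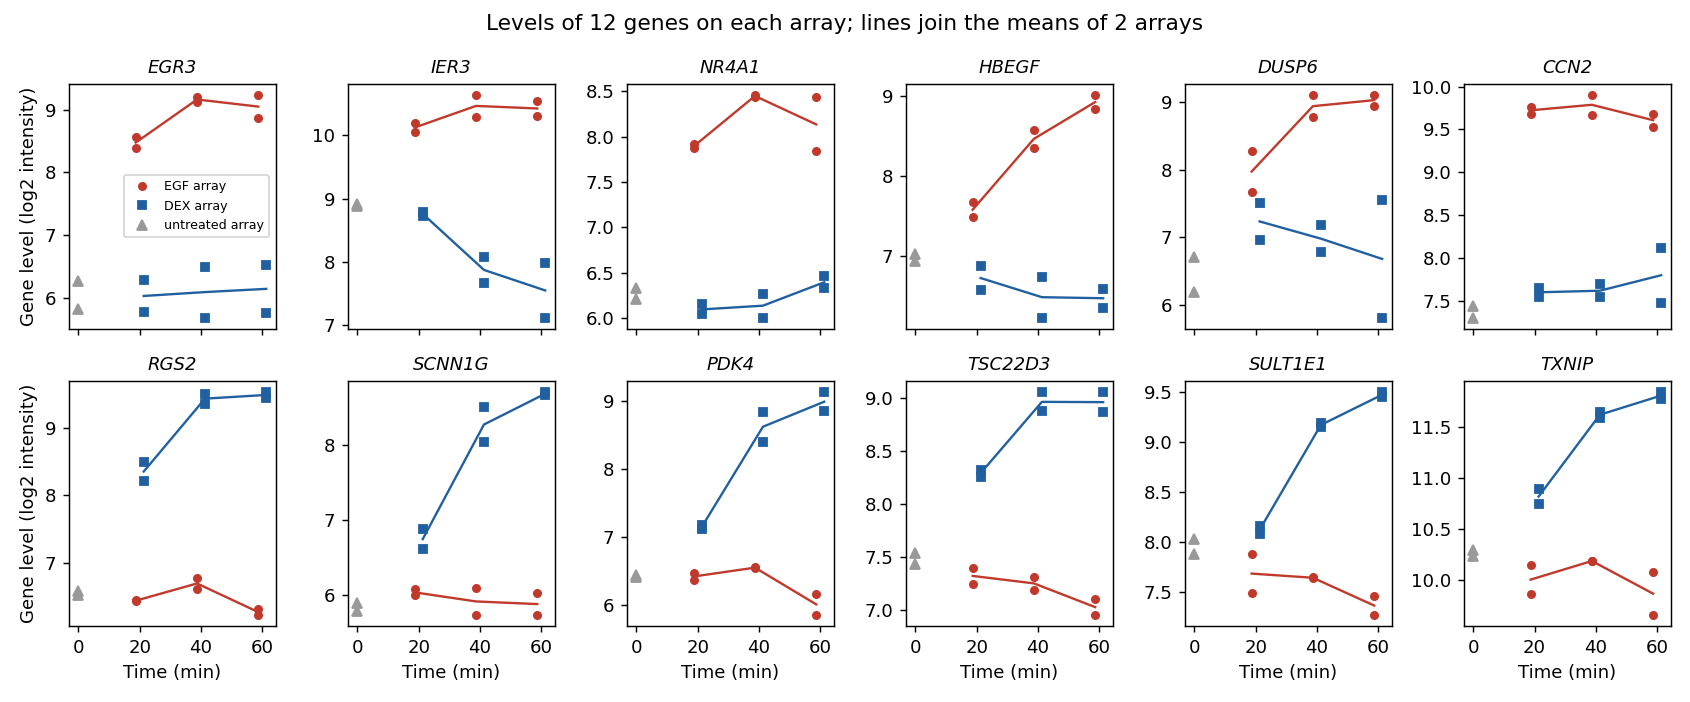
Level (log2 intensity) of 12 genes on each array against time in min, with EGF arrays as circles, DEX arrays as squares and the 2 untreated arrays as triangles at 0 min; lines join the means of 2 arrays. In the upper row the EGF arrays lie above the DEX arrays at every time, and in the lower row below them, with RGS2 reaching a difference of -3.22 at 60 min.

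FOS and JUN, the founding AP-1 subunits, are described after their values were seen, because both agents stood above the untreated arrays. FOS was at 7.61 to 9.65 on the EGF arrays and 6.98 to 8.64 on the DEX arrays, with the untreated arrays at 6.59 and 6.20. JUN ranged over 7.26 to 8.61 with EGF and 6.71 to 7.61 with DEX, against 6.50 and 6.40. In both genes the agents' arrays overlapped, and the mean differences of 1.16 ± 0.22 for FOS and 0.92 ± 0.14 for JUN (SE) passed the test (adjusted p = 0.00978 and 0.00366).

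Promoter sequence is shown for the 3 immediate early factors with the largest differences after EGR3, because these genes were called together. The EGR3 window is not printed here. Each window is the 250 bases before the first annotated start, 5′ to 3′ on the gene's strand, from RefSeq (GRCh38.p14): NR4A1, at the first of 2 starts, at chr12:52022582-52022831, IER2 at chr19:13150161-13150410 and EGR1 at chr5:138465229-138465478, all on the plus strand. Capitals mark matches to the CArG box, which the serum response factor binds, or to GCGNGGGCG, which EGR factors bind.
NR4A1: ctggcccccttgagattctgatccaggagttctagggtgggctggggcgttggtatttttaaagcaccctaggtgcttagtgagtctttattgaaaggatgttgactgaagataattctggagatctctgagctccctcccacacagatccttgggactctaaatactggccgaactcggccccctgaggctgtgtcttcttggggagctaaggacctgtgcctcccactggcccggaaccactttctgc
IER2: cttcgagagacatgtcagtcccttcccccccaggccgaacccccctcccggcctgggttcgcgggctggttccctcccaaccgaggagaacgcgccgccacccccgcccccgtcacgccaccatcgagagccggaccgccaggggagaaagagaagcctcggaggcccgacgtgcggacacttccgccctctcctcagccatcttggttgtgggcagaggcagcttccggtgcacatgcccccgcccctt
EGR1: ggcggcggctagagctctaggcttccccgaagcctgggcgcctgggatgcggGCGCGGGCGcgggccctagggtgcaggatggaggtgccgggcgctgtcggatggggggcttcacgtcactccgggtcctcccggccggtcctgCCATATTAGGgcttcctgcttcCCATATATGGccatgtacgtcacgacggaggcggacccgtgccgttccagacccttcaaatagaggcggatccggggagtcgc
The EGR1 window held 2 CArG boxes, from 105 to 96 and from 83 to 74 bases before the start, and 1 GCGNGGGCG match. The motifs searched, on both strands, were the CArG box, the cyclic AMP element TGACGTCA, the AP-1 site TGANTCA, the EGR site GCGNGGGCG, the NF-kB motif, the short GR site AGAACA and the GR palindrome, which can hold AGAACA. A promoter window was found for 76 of the 105 EGF-higher, 33 of the 43 DEX-higher and 12968 of the 16559 tested genes. A gene was counted if the window of any of its annotated starts held the motif. Shares of genes and shares of windows are therefore unlike measures. A CArG box was found in 5 of the 76 EGF-higher genes (6.58%) and 1 of the 33 DEX-higher genes (3.03%), against 1.61% of all genes tested and 1.16% of all 34943 windows, and TGACGTCA in 6 of the 76 (7.89%) and none of the 33, against 2.94% of all genes tested and 1.63% of all windows. TGANTCA was found in 9.21% and 3.03% of the EGF-higher and DEX-higher genes (6.78% of all genes tested, 6.59% of all windows), GCGNGGGCG in 13.2% and 24.2% (15.9% and 8.39%) and the NF-kB motif in 2.63% and 9.09% (2.49% and 1.73%). These shares describe the letters in the windows.

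Feedback inhibitors of the EGFR to ERK pathway were split between the agents. Of 32 measured members 4 were higher with EGF and 2 with DEX over the 3 times, with a median of 0.109. At 60 min alone 10 were higher with EGF and 3 with DEX, with a median of 0.248. At that time 3.83% of all genes tested were called in either direction. That count and several of the list counts at 60 min, here and below, depended on single arrays of that time. Those higher with EGF were DUSP5, DUSP6 and DUSP4, phosphatases that inactivate ERK, and SPRY4, a Sprouty protein that blocks RAS activation. DUSP6 was at 7.68 and 8.28 at 20 min, 9.10 and 8.78 at 40 min and 9.11 and 8.95 at 60 min with EGF and at 6.96 and 7.51 at 20 min, 7.18 and 6.78 at 40 min and 7.55 and 5.81 at 60 min with DEX. Its EGF arrays lay above every DEX array, and the 2 DEX arrays at 60 min were far apart. Its mean difference was 1.69 ± 0.24 (SE, adjusted p = 0.00241), and at 60 min 2.35, which fell short of the threshold without the first EGF array of that time (2.28, adjusted p = 0.0746) and moved to 1.48 and 3.22 without the second and the first DEX array. DUSP5 differed by 1.83 ± 0.12, DUSP4 by 1.20 ± 0.09 and SPRY4 by 1.26 ± 0.17 (SE). The arrays of SPRY4 overlapped, at 7.55 to 9.20 with EGF and 6.77 to 7.86 with DEX. Its difference was 0.50 at 20 min and 1.84 at 60 min, and of the single times it was called only at 60 min. ERRFI1, also called MIG6, which binds and inhibits EGFR itself and is also in the GR target list, was the larger of the 2 DEX-higher members. It was at 9.08 and 9.04 at 20 min, 9.22 and 9.43 at 40 min and 9.32 and 9.41 at 60 min with EGF and at 9.62 and 9.55 at 20 min, 10.61 and 10.47 at 40 min and 10.80 and 10.77 at 60 min with DEX. The DEX arrays were higher at every time, and both agents stood above the untreated arrays, at 8.50 and 8.51. The difference was -1.05 ± 0.07 (SE, adjusted p = 3.71e-06). The second, SPRY1, another Sprouty protein named after its value was seen, differed by -0.74 ± 0.08 (SE, adjusted p = 0.000448), so 2 Sprouty genes were called in opposite directions. DUSP1, a phosphatase that acts on p38 and JNK as well as ERK and is also a GR target, was likewise named after its values were seen: it stood above the untreated arrays (9.41 and 9.34) with both agents, at 9.82 to 11.64 with EGF and 11.14 to 11.65 with DEX. Its mean difference of -0.57 ± 0.15 (SE) was under 1.5-fold, and at 60 min it was -1.003 (adjusted p = 0.0428).

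Among ligands of the EGFR family 2 of 10 were higher with EGF and none with DEX. HBEGF was at 7.49 and 7.67 at 20 min, 8.35 and 8.58 at 40 min and 9.02 and 8.84 at 60 min with EGF, against 6.23 to 6.87 over the DEX arrays, with the untreated arrays at 6.94 and 7.03. No DEX array reached an EGF array, and the difference went from 0.85 at 20 min to 2.45 at 60 min. This change with time did not pass the F test (adjusted p = 0.167). EREG, epiregulin, was at 7.84 and 8.10 at 20 min, 8.90 and 8.80 at 40 min and 9.21 and 9.08 at 60 min with EGF and at 7.85 and 7.55 at 20 min, 7.65 and 6.91 at 40 min and 7.16 and 6.64 at 60 min with DEX. The agents overlapped at 20 min (0.27, adjusted p = 0.858) and lay apart at 60 min (2.24, adjusted p = 0.000379). The change of the EREG difference with time did not pass the F test (adjusted p = 0.195). TGFA and NRG1 differed by 0.27 ± 0.11 and 0.25 ± 0.08 (SE) and were not called. The 33 probesets of NRG1 ran from -0.73 to 1.21, with 22 positive and none called. NRG1 was among the genes called for exon use, described below, with 1 departing probeset. No receptor of the ERBB and steroid hormone list was called (0 of 9, 1 at an unadjusted limma p under 0.05), and EGFR differed by -0.16 ± 0.09 (SE). Over all 16559 genes tested 4618 had an unadjusted limma p under 0.05. The mineralocorticoid receptor NR3C2 was dim, at 5.10 to 5.43 on the EGF arrays and 5.34 to 5.65 on the DEX arrays, under the stricter background of 5.97 on every one of the 12 arrays.

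Of 23 genes of growth arrest and stress response 5 were higher with EGF and none with DEX over the 3 times, and at 60 min alone 5 and 1, the latter being BTG1, an antiproliferative gene named after its value was seen (-0.83, adjusted p = 0.0316). IER3, a stress and survival regulator, was at 10.05 and 10.20 at 20 min, 10.64 and 10.29 at 40 min and 10.53 and 10.31 at 60 min with EGF and at 8.79 and 8.73 at 20 min, 8.08 and 7.67 at 40 min and 7.98 and 7.12 at 60 min with DEX. The untreated arrays, at 8.88 and 8.92, lay between the agents, and the mean difference was 2.27 ± 0.14 (SE, adjusted p = 2.16e-06). TRIB1, a pseudokinase, and the polo-like kinases PLK2 and PLK3 differed by 1.61 ± 0.12, 1.28 ± 0.14 and 0.95 ± 0.10 (SE). PLK2 was at 7.45 to 8.38 with EGF and 5.56 to 7.35 with DEX. Its untreated arrays, at 7.76 and 7.38, had a mean between the agents and nearer EGF. NUAK2, a stress-activated kinase, differed by 0.65 ± 0.08 (SE), with both untreated arrays at 7.18 and 7.10 and the EGF arrays at 6.52 to 7.20. Its difference missed the fold minimum with the mean of probesets (0.57) and with 16 added before log2 (0.49).

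Of 34 migration and matrix genes 6, and of 30 cytokines and chemokines 7, were called on the EGF side over the 3 times, and none on the DEX side. At 60 min alone 8 migration and matrix genes were higher with EGF and 1 with DEX, and 7 cytokines and chemokines were higher with EGF and 2 with DEX. Those higher with DEX at 60 min, named after their values were seen, were LOX, a collagen crosslinking enzyme (-0.82, adjusted p = 0.0116), and the chemokines CXCL14 (-0.83, adjusted p = 0.0178) and CXCL5 (-0.85, adjusted p = 0.04). CCN2 and CCN1, matricellular proteins and targets of the YAP pathway, led the first group. CCN2 was at 9.69 and 9.76 at 20 min, 9.91 and 9.67 at 40 min and 9.68 and 9.53 at 60 min with EGF and 7.47 to 8.12 with DEX, a difference of 2.04 ± 0.11 (SE, adjusted p = 7.69e-07), and was already 2.13 at 20 min. CCN1 differed by 1.69 ± 0.13, EPHA2, a receptor tyrosine kinase, by 0.87 ± 0.09 and PLAUR, the urokinase receptor, by 0.67 ± 0.08 (SE). GDF15, a stress cytokine, ranged over 8.62 to 9.30 with EGF and 7.14 to 8.16 with DEX, with untreated arrays at 8.46 and 8.19. Its difference was 1.23 ± 0.07 (SE, adjusted p = 2.03e-06). CXCL1, IL1A and INHBA differed by 0.77 ± 0.11, 0.74 ± 0.16 and 0.72 ± 0.11 (SE). IL1A was the least certain of these, with overlapping arrays and adjusted p = 0.0196, which was 0.0502 to 0.059 without the second EGF array at 40 min, the first EGF array at 60 min or the second DEX array at 20 min, and its difference was 0.57 without the second DEX array at 60 min. PTGS2, the inducible cyclooxygenase of prostaglandin synthesis, was in none of these lists and differed by 1.82 ± 0.14 (SE, adjusted p = 1.34e-05).

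GR target genes were the DEX-side counterpart. Of 39 measured members 15 were higher with DEX and 1 with EGF, and the median was -0.356. Of all genes tested 0.26% were higher with DEX. This list too was chosen with earlier results of these data known, so its count is a description. RGS2 was at 8.21 and 8.49 at 20 min, 9.36 and 9.51 at 40 min and 9.45 and 9.53 at 60 min with DEX and at 6.43 and 6.44 at 20 min, 6.77 and 6.61 at 40 min and 6.31 and 6.22 at 60 min with EGF. It had the lowest adjusted p of all genes: no array overlapped, the EGF arrays lay near the untreated arrays at 6.53 and 6.58, and the mean difference was -2.63 ± 0.08 (SE, adjusted p = 3.50e-09), or 9.33-fold at 60 min. SCNN1G, which encodes part of a sodium channel of epithelia (ENaC), was at 6.61 and 6.88 at 20 min, 8.05 and 8.51 at 40 min and 8.71 and 8.67 at 60 min with DEX and 5.73 to 6.09 with EGF. PDK4, which turns off pyruvate oxidation, was at 7.17 and 7.11 at 20 min, 8.40 and 8.83 at 40 min and 8.84 and 9.12 at 60 min with DEX and 5.85 to 6.55 with EGF. In both genes the DEX level at 20 min was already above every EGF array and kept a larger distance at 40 and 60 min, and the mean differences were -1.96 ± 0.10 and -1.93 ± 0.09 (SE). TSC22D3 was at 8.26 and 8.33 at 20 min, 8.87 and 9.05 at 40 min and 8.87 and 9.05 at 60 min with DEX and 7.24 and 7.40 at 20 min, 7.19 and 7.31 at 40 min and 7.10 and 6.95 at 60 min with EGF, a difference of -1.54 ± 0.07 (SE, adjusted p = 6.99e-07). SGK1, a kinase that raises sodium channel activity, differed by -1.31 ± 0.10 (SE), from 7.74 to 8.44 with EGF to 8.92 to 10.00 with DEX. GLUL, glutamine synthetase, and BCL6, a zinc finger repressor, differed by -0.91 ± 0.09 and -1.04 ± 0.09 (SE).

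ZFP36 was the single GR target higher with EGF. It encodes a protein that binds AU-rich RNA and speeds its decay, and is also counted among the AU-rich RNA decay factors, where it was the only one of 10 called over the 3 times and none was called at 60 min alone. ZC3H12A, an RNase of the same list, differed by 0.58 ± 0.09 (SE, adjusted p = 0.00283), just under 1.5-fold, and was called in 9 of 21 alternatives. ZFP36 lay at 9.42 and 9.43 at 20 min, 9.85 and 9.62 at 40 min and 9.34 and 8.84 at 60 min with EGF and 8.28 and 8.36 at 20 min, 8.70 and 8.35 at 40 min and 8.73 and 8.56 at 60 min with DEX, both above the untreated arrays at 7.75 and 7.65. The difference of ZFP36 was 1.10 at 20 min, 1.21 at 40 min and 0.44 at 60 min.

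Windows for the 3 GR targets with the largest differences among those matched in the promoter table are shown for the same reason, from the same table: RGS2 at chr1:192808789-192809038 on the plus strand, PDK4 at chr7:95596517-95596766 and TSC22D3, at the first of 4 annotated starts, at chrX:107775989-107776238, both on the minus strand. Capitals mark AGAACA, the short GR site, in either orientation, or GCGNGGGCG.
RGS2: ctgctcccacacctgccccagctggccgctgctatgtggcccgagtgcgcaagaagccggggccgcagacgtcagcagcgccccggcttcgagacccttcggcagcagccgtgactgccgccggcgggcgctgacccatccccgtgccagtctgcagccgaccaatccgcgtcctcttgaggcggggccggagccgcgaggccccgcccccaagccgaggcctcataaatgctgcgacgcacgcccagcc
PDK4: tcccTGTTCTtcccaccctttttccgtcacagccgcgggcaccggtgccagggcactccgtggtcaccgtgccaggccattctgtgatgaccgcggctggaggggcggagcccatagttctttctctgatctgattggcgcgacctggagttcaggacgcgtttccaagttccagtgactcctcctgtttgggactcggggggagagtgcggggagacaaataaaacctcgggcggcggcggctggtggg
TSC22D3: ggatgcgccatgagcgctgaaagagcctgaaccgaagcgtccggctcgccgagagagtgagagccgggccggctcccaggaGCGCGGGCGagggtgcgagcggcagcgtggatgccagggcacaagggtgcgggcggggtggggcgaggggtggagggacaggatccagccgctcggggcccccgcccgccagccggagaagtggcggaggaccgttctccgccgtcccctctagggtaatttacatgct
The PDK4 window held 1 AGAACA match, from 246 to 241 bases before the start. The windows of the other TSC22D3 starts held none of the motifs searched, and which start was in use was not tested. AGAACA was found in 3 of the 33 DEX-higher genes (9.09%) and 9 of the 76 EGF-higher genes (11.8%), against 11.9% of all genes tested and 12.4% of all windows. The GR palindrome was found in 1 of the 33 (3.03%), the window of TXNIP, against 0.347% of all genes tested and 0.326% of all windows. A window of this length leaves out the distant sites that GR is known to use, so these letters say nothing of its binding.

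Regulators of NF-kB, the main inflammatory transcription factor, were among the DEX-higher genes. Of 21 measured members of the list 3 were higher with DEX and 1 with EGF over the 3 times, with a median of 0.0463 that turned to -0.007 with only the brighter probesets. At 60 min alone 2 were higher with each agent. These 3 are also in the GR target list. NFKBIA, the inhibitor that holds NF-kB in the cytoplasm, was at 9.43 and 9.60 at 20 min, 10.04 and 9.99 at 40 min and 9.61 and 9.83 at 60 min with DEX and at 8.81 and 8.64 at 20 min, 8.90 and 8.88 at 40 min and 8.92 and 8.76 at 60 min with EGF. No array overlapped, and the EGF arrays lay beside the untreated arrays at 8.77 and 8.86. The difference was -0.93 ± 0.07 (SE, adjusted p = 2.06e-05). BIRC3, a ubiquitin ligase of TNF receptor signalling, differed by -1.20 ± 0.12 (SE), with arrays that overlapped, and TNFAIP3, an editing enzyme that ends NF-kB signalling, by -0.66 ± 0.13 (SE, adjusted p = 0.0137). TNFAIP3 was under 1.5-fold without the second EGF array at 60 min (-0.55) or the first DEX array at 60 min (-0.58). BCL3, an atypical member of the inhibitor family that acts in the nucleus, was the EGF-higher gene, at 0.83 ± 0.07 (SE).

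Among further DEX-higher genes, TXNIP and SULT1E1 lay outside the GR list. TXNIP, an arrestin that binds thioredoxin and limits glucose uptake, was at 10.74 and 10.89 at 20 min, 11.59 and 11.65 at 40 min and 11.84 and 11.77 at 60 min with DEX and 9.65 to 10.18 with EGF, with the untreated arrays at 10.30 and 10.23. SULT1E1, the estrogen sulfotransferase, was at 8.16 and 8.08 at 20 min, 9.19 and 9.16 at 40 min and 9.45 and 9.50 at 60 min with DEX and 7.27 to 7.88 with EGF. The agents did not overlap in either gene, and the differences were -1.40 ± 0.09 and -1.36 ± 0.08 (SE, adjusted p = 2.91e-06 and 2.03e-06). TXNIP and PDK4 were the 2 called of 22 measured genes of fuel use and insulin signalling, both higher with DEX, over the 3 times. At 60 min alone 3 members were higher with DEX and 4 with EGF, among the latter PFKFB3, which drives glycolysis (0.87, adjusted p = 0.0102). KDR, the main VEGF receptor and a gene of endothelial cells, was dim and overlapped, at 4.87 to 5.37 with EGF and 5.34 to 6.78 with DEX. Its difference of -0.90 ± 0.10 (SE) was -0.33 with only the brighter probesets and -0.56 with the filter and summary on the 12 arrays alone, both under 1.5-fold. FLRT3, a membrane protein with leucine-rich repeats, and LOC100133920 differed by -0.87 ± 0.11 and -0.997 ± 0.122 (SE). Of 15 metallothionein and heat shock genes 1 was called, MT1X at -0.63 ± 0.13 (SE), also a member of the GR list, which lay under 1.5-fold with only the brighter probesets (-0.27), with 16 added before log2 (-0.56), without the second EGF array at 40 min (-0.56) or without the first DEX array at 60 min (-0.51). MT1E and MT1F were higher on all 6 DEX arrays than on any EGF array, with differences of -0.43 ± 0.10 and -0.30 ± 0.07 (SE) that stayed under 1.5-fold.

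**Figure D2:**
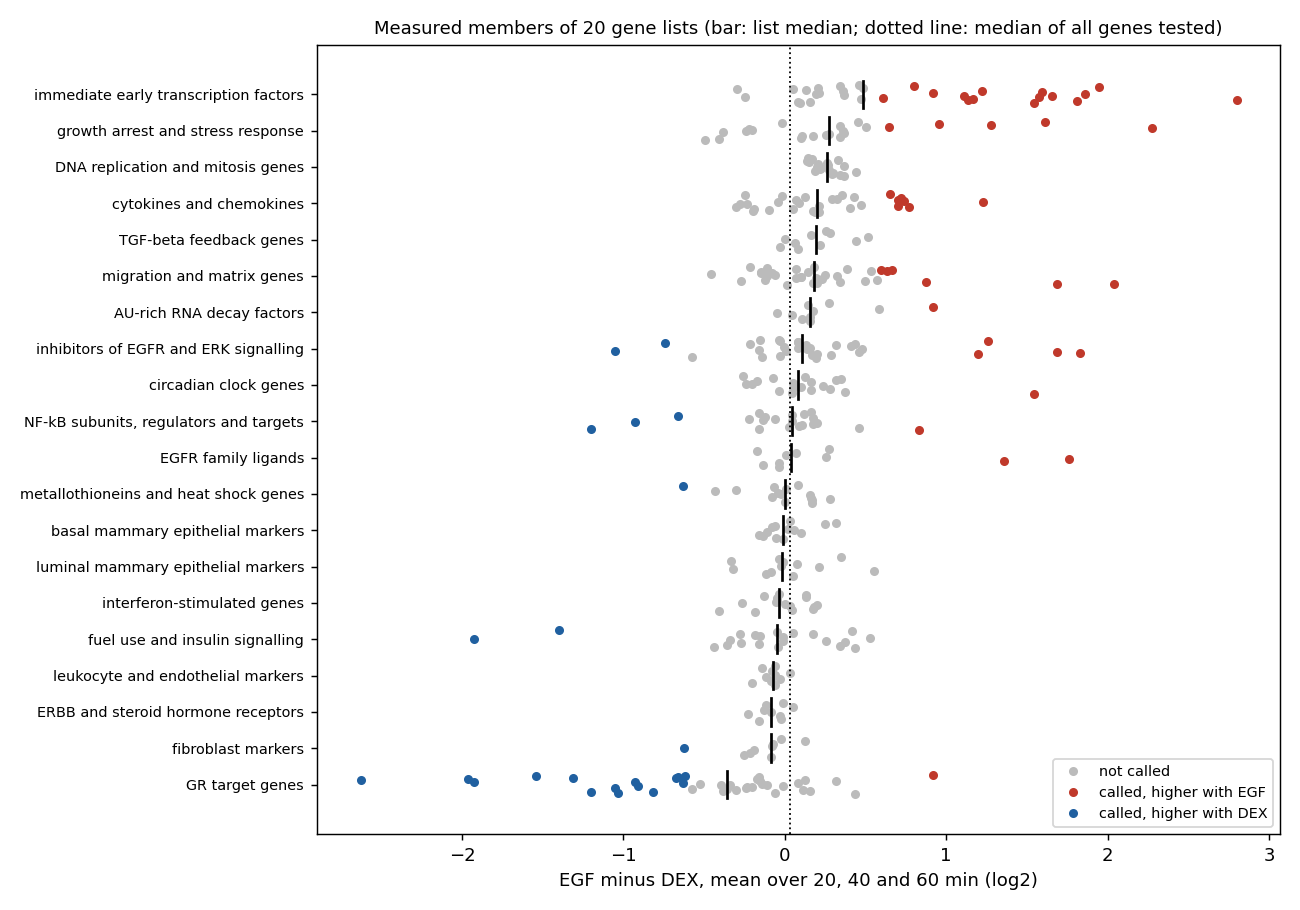
Mean EGF minus DEX difference over 20, 40 and 60 min (log2) of each measured member of 20 gene lists, with called genes in red (higher with EGF) or blue (higher with DEX), list medians as bars and the median of all genes tested, 0.03, as a dotted line. The immediate early factors reach furthest to the right, with a median of 0.484, and the GR targets furthest to the left, with a median of -0.356.

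All 19 genes of DNA replication and mitosis had positive differences, from 0.139 to 0.439 with a median of 0.259 against 0.03 for all genes. None was called, while 12 had an unadjusted limma p under 0.05 over the 3 times. So did 4618 of all 16559 genes tested, the share against which such counts in this paragraph stand. The 19 genes were measured on the same 12 arrays, so their shared sign is not 19 separate results. CCNB1 and AURKA, which drive entry into mitosis, differed by 0.44 ± 0.12 and 0.37 ± 0.15 (SE), with overlapping arrays. BHLHE40, a repressor of the circadian loop that is also in the immediate early list, was the only one of 20 clock genes called over the 3 times, at 1.54 ± 0.13 (SE, adjusted p = 3.36e-05), while PER1 and PER2 differed by 0.32 ± 0.09 and 0.35 ± 0.09 (SE). At 60 min alone 3 clock genes were higher with EGF, among them BMAL1, the activator of the loop (0.70, adjusted p = 0.0157). No member of the TGF-beta feedback (0 of 10, 4 at an unadjusted p under 0.05) or interferon-stimulated genes (0 of 17, 3 at an unadjusted p under 0.05) was called over the 3 times. At 60 min alone 2 TGF-beta feedback genes were higher with EGF, SMAD7, an inhibitor of the TGF-beta receptor (0.90, adjusted p = 0.0144), and SKIL, a repressor of SMAD factors (0.70, adjusted p = 0.0437), and 1 interferon-stimulated gene, IFI44L, was higher with DEX (-0.76, adjusted p = 0.00688). SMAD7 was also called over the 3 times in 4 of 20 alternatives. Over the 3 times none of 13 basal, 12 luminal or 10 leukocyte and endothelial genes was called, with 2, 5 and 0 at an unadjusted p under 0.05. FOXA1, a luminal marker, was called as higher with EGF with only the brighter probesets (0.59). It was also called with the filter and summary on the 12 arrays alone (0.64). FAP, a marker of activated fibroblasts, was called at -0.62 ± 0.13 (SE, adjusted p = 0.0166). The other fibroblast markers COL1A2, COL3A1 and DCN differed by -0.25 ± 0.07, -0.22 ± 0.08 and -0.19 ± 0.09 (SE). FAP had overlapping arrays, and its difference fell under 1.5-fold without any of 4 single arrays (the first EGF array at 20 min, the second at 60 min, the second DEX array at 40 min and the first at 60 min, at -0.50 to -0.58), without a brightness filter (-0.54) and with 16 added before log2 (-0.48). The mean level of all fibroblast markers was 4.80 to 4.86 on the EGF arrays and 4.85 to 5.06 on the DEX arrays, and its part in the value of FAP was not tested.

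Position against the untreated arrays was described for the called genes. In 94 of the 105 EGF-higher genes the untreated mean was nearer the DEX mean, and in 35 of the 43 DEX-higher genes it was nearer the EGF mean. It lay below both agents in 23 EGF-higher and 16 DEX-higher genes, among them EGR1, PTGS2, ERRFI1 and SGK1. It lay above both in NUAK2 and FBXO32, which encodes a muscle-known ubiquitin ligase. BCL6 was 1 of 7 DEX-higher genes whose untreated mean lay between the agents and nearer DEX, with EGF arrays at 7.68 to 8.58, DEX arrays at 8.60 to 9.56 and untreated arrays at 8.90 and 8.79.

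The number of called genes grew with time. At 20 min 9 genes were called (0.0544% of those tested), 7 higher with EGF and 2 with DEX. The EGF-higher genes with the largest differences were EGR3 (2.44), CCN2 (2.13), NR4A1 (1.80), CCN1 (1.67) and DUSP5 (1.62), and the DEX-higher genes were RGS2 (-1.92) and TSC22D3 (-0.97). At 40 min 67 genes were higher with EGF and 26 with DEX (0.562%). At 60 min 518 were higher with EGF and 117 with DEX (3.83%), led by EGR3 (2.90), IER3 (2.87) and HBEGF (2.45) and by RGS2 (-3.22), PDK4 (-2.98) and SCNN1G (-2.81). The split at 60 min depended on scaling and on single arrays. After quantile normalization between arrays it was 336 to 153, or 68.7% higher with EGF in place of 81.6%. It was 142 to 68 (67.6%) without the first EGF array of that time and 415 to 237 (63.7%) without the second. Both DEX arrays at 60 min had the lowest medians of the 12, and the split was 124 to 43 (74.3%) without the first and 120 to 33 (78.4%) without the second.

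Single arrays carried much of these counts. At 20 min 4 genes were called without the first EGF array or either DEX array of that time, and 15 without either EGF array at 60 min. EGR3 at 20 min was then no longer called without the first EGF array (2.36, adjusted p = 0.098) or the second DEX array (2.19, adjusted p = 0.117), and CCN1, DUSP5 and TSC22D3 also lost the call without single arrays of that time, while RGS2, NR4A1 and CCN2 passed in all. At 40 min 39, 40 and 45 genes were called without the second DEX, the first EGF or the second EGF array of that time. At 60 min the count was 153 without the second DEX array, 167 without the first and 210 without the first EGF array. The 148 genes called over the 3 times moved less, to between 138 and 197.

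**Figure D3:**
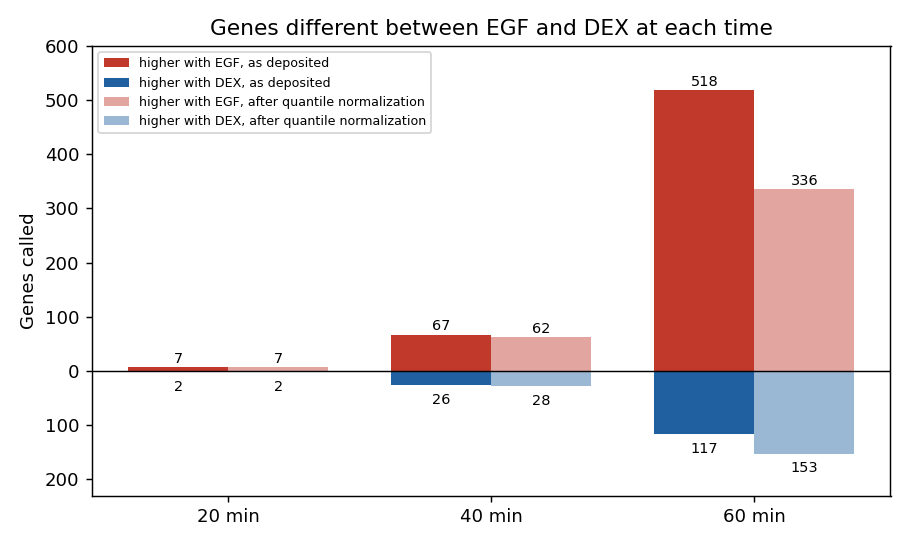
Number of genes called at 20, 40 and 60 min, higher with EGF upward and higher with DEX downward, for the values as deposited (dark bars) and after quantile normalization (pale bars). The counts at 60 min are 518 and 117 as deposited and 336 and 153 after quantile normalization.

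Called genes recurred between times. Of the 9 genes called at 20 min 8 were called in the same direction at 40 min and 8 at 60 min. Of the 93 called at 40 min 73 (78.5%) were called in the same direction at 60 min, where they made up 11.5% of the calls. Of the 148 genes called over the 3 times, 102 of the EGF-higher and 40 of the DEX-higher genes had the same sign at every time, and none was called in the opposite direction at any time. The median difference of the EGF-higher genes was 0.47 at 20 min, 0.90 at 40 min and 1.08 at 60 min, and that of the DEX-higher genes -0.44, -0.90 and -1.10. The largest difference fell at 60 min in 60 EGF-higher and 28 DEX-higher genes, at 40 min in 43 and 12, and at 20 min in 2 and 3. These genes were chosen on the mean of the same values, so the medians are a description.

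**Figure D4:**
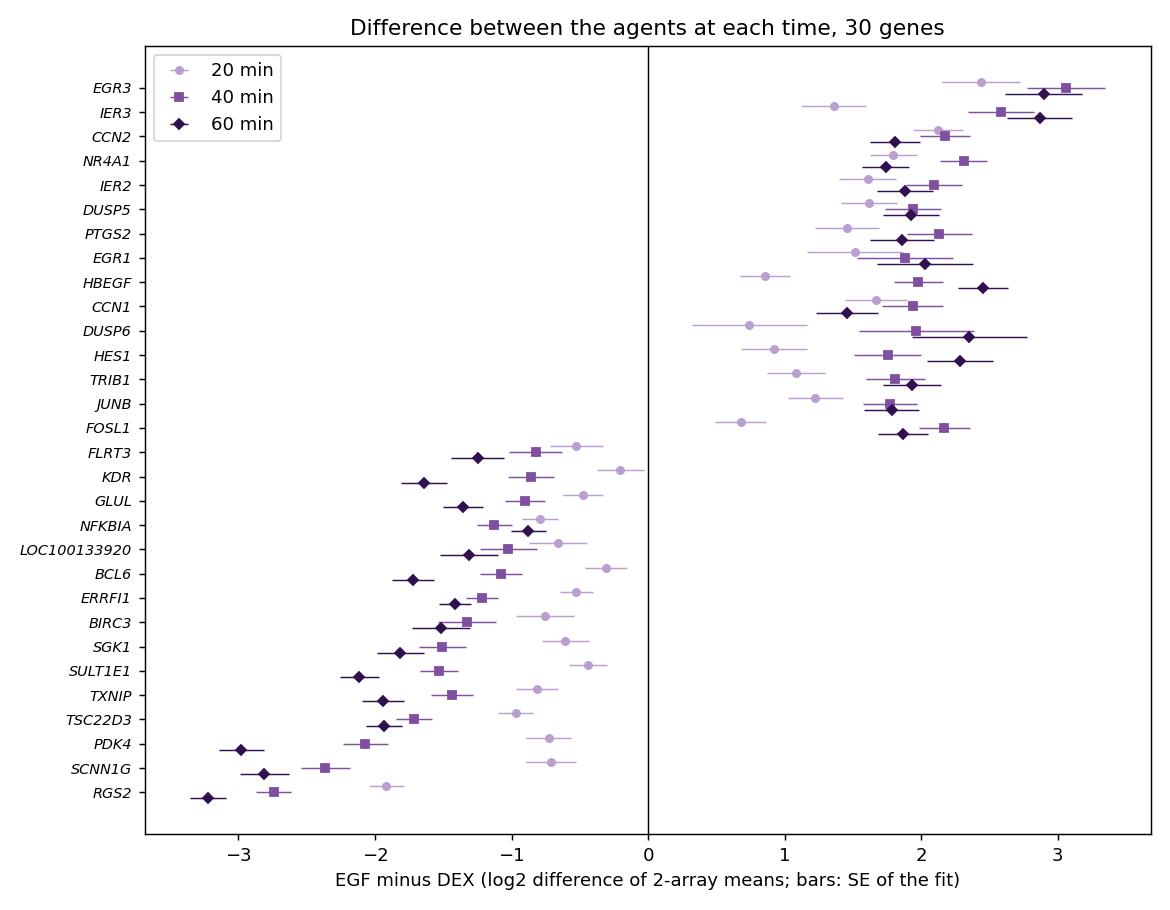
EGF minus DEX difference (log2) at 20, 40 and 60 min for the 15 genes with the largest difference in each direction; bars are the SE of the fit. All 30 genes keep their sign at the 3 times, from 2.44 at 20 min to 2.90 at 60 min for EGR3 and from -1.92 to -3.22 for RGS2.

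Whether the difference itself changed with time was tested by an F test over its 2 time contrasts. Only 3 genes passed (0.0181%), and all 3 were higher with DEX: PDK4, SCNN1G and SULT1E1. PDK4 went from -0.73 at 20 min to -2.07 at 40 min and -2.98 at 60 min (adjusted p = 0.0339). SCNN1G went from -0.71 to -2.36 and -2.81, and SULT1E1 from -0.44 to -1.53 and -2.11 (adjusted p = 0.0455 in both). In these genes the mean of the DEX arrays was higher at each later time, while the EGF arrays stayed within 5.85 to 6.55, 5.73 to 6.09 and 7.27 to 7.88. Between 0 and 3 genes passed when single arrays were left out, with 0 in 9 of the 12 cases, and none passed with the replicate number as a block. EREG, DUSP6, HBEGF and IER3 had gaps of 1.97, 1.61, 1.60 and 1.51 between their largest and smallest difference. They did not pass the F test in the fit without the block (adjusted p = 0.195, 0.673, 0.167 and 0.406).

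At the level of single probesets, 1811 of 510091 probesets were higher with EGF and 1203 with DEX (0.591%). Probesets without a gene symbol made up 1119 and 921 of these, or 0.86% of the 237346 tested, against 0.366% of the 262233 with 1 symbol. Called probesets fell in 488 genes, of which 110 were also called as genes. No gene had probesets called in both directions. In RGS2 all 12 probesets were called, with differences from -3.16 to -1.36, as were all 15 of TXNIP (from -2.26 to -1.03), all 11 of CCN1 (1.42 to 2.02) and all 6 of IER3 (2.10 to 2.68). In PDK4 15 of 16 and in SCNN1G 16 of 17 probesets were called, and none was positive. The count of 3014 was 1426 and 1523 without the second and the first EGF array at 40 min, 1443 without the first EGF array at 60 min, 1618 and 1444 without the first and the second DEX array at 20 min, 1565 without the second DEX array at 40 min and 1917 without the first DEX array at 60 min.

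Exon use, the departure of a probeset from the rest of its gene, was called in 388 of 17602 genes (2.2%) by limma's diffSplice, which gives all probesets of a gene 1 spread. Only 30 genes passed when each probeset's departure was tested with its own spread, and all 30 were among the 388. In 305 of the 388 a single probeset departed by 1 or more, and 44 of the 388 were also called as genes. NR4A1 had the lowest p: 11 of its 24 probesets departed, with differences from -0.76 to 4.05, while the other 13 ran from 1.13 to 2.69, and 5 of its probesets passed with their own spread. In GLUL 7 of 33 probesets departed, with a median difference of -2.15 against -0.72 for the other 26, and 1 passed with its own spread. The departing probesets of GLUL lay on both sides, from -2.51 to 0.44, and the other 26 ran from -1.97 to -0.14. The probeset at 0.44 was dim, at a level of 4.74. PLK3, TPM3 and TSC22D3 were called by diffSplice with 3, 2 and 3 departing probesets, and none passed with its own spread. The departing probesets of TSC22D3, at -2.39, -0.07 and 0.02, lay on both sides of its other 14, at -1.94 to -0.38. The 388 became 203 without the second DEX array at 20 min, 207 without the first EGF array at 60 min, 246 without the second EGF array at 40 min, 635 without the second EGF array at 20 min, 787 without the first DEX array at 40 min and 840 without the second EGF array at 60 min. The probesets have no coordinates in the files, so no exon is named.

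**Figure D5:**
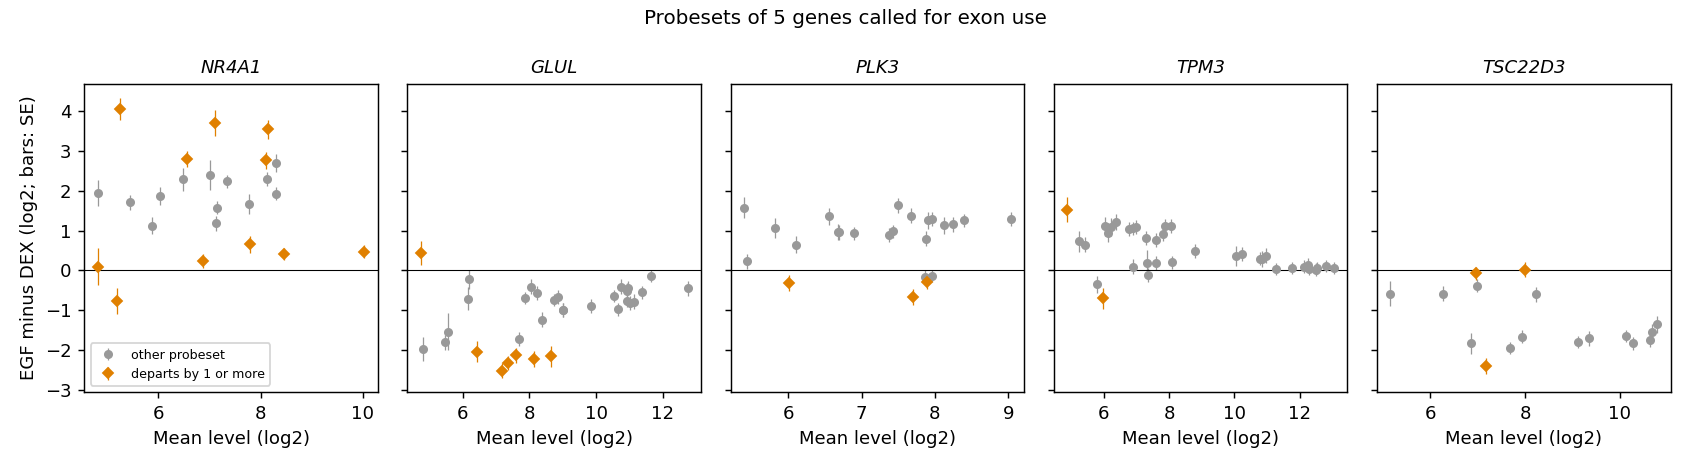
EGF minus DEX difference (log2, mean over times, bars are the SE) of each probeset against its mean level (log2) in the 5 genes with the lowest p for exon use; diamonds depart from the rest of the gene by 1 or more. In GLUL the departing probesets span -2.51 to 0.44, with a median difference of -2.15, and in NR4A1 they span -0.76 to 4.05.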

How the data were processed

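RNA of MCF10A cells was measured on Affymetrix Human Exon 1.0 ST arrays. The deposited values were linear intensities of 844005 probesets, which the authors made with the Affymetrix Expression Console. For its version, summary method and background correction, nothing was given in the sources used here. A single gene symbol was paired with 354421 probesets, several with 14891 and none with 474693, and 2947 of 19487 symbols were updated through synonyms.

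Intensities were converted to log2. Probesets whose mean over the 26 arrays lay above 4.65, the median of probesets without a symbol, were kept, and genes with at least 3 were summarised by Tukey's median polish. limma 3.58.1 (R 4.3.3) fitted a mean for each of 6 groups over 12 arrays. The difference between agents was tested over the times, at each time, and for change with time, then per probeset and by diffSplice (departure of at least 1 on the log2 scale). A call needed a Benjamini-Hochberg adjusted p under 0.05 over all features and at least 1.5-fold. Scripts were tested on simulated data with 200 changed genes. The number of arrays limits the precision.

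Members and gene lists were chosen with earlier results of these data known. Named genes were the 15 with the largest difference in each direction among called genes of 1 sign, the 5 in each direction at each time, those changing with time, up to 4 of each list (all called members where 5 or fewer were called), and 5 genes for exon use. Other genes are named as chosen after their values were seen or stand in a count. The alternatives were all 26 arrays in the fit, the replicate number as a block, trend and robust options, other brightness filters, summaries, fold minimums and departures, quantile normalization, 16 added before log2, and each array left out. A test of exon use with each probeset's own spread was added after seeing the data, as were the alternatives for differences of named genes at 1 time. Sequences came from RefSeq promoters.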

Additional observations from a re-analysis of the deposited data

Results flagged for a closer look

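The difference between EGF and DEX itself changed with time in 3 genes, by limma's F test over the 2 time contrasts among 16559 genes. In PDK4 the largest and the smallest difference over 20, 40 and 60 min lay 2.25 apart on the log2 scale (adjusted p = 0.0339), from -0.73 at 20 min to -2.98 at 60 min. In SCNN1G they lay 2.10 apart (adjusted p = 0.0455), from -0.71 to -2.81. In SULT1E1 they lay 1.68 apart (adjusted p = 0.0455), from -0.44 to -2.11. All 3 are higher with DEX. No gene passed in 9 of the 12 fits that left out a single array, or with the replicate number as a block.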

How the results depend on the processing

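Signs under the alternatives were followed for the genes named by the rules above. This was done over the 3 times, and at a single time only for the genes with the largest differences there. None of these differences that was called changed sign. The signs of the other called genes were not followed one by one. The uncalled differences of CD3E and ESR2 turned to 0.12 and 0.03 with no brightness filter, and the median of the NF-kB list to -0.007 with the 75th percentile filter. The 148 genes called over the 3 times became 1452 with no fold minimum, 39 at 2-fold and 95 with 16 added before log2. The 9 genes at 20 min became 19 with 16 added, 21 with all 26 arrays in the fit and 19 with trend and robust options. The 93 at 40 min became 150 with trend and robust options, 48 at 2-fold and 140 with the mean of probesets, and the 635 at 60 min became 102 at 2-fold and 968 with no fold minimum. The 3 genes whose difference changed with time became 7 with the 75th percentile filter, 15 with all 26 arrays, 6 with trend and robust options, 1 with the filter and summary on the 12 arrays, 1 with the mean of probesets and 0 with no brightness filter. The 3014 probesets became 5388 with 16 added, 5679 with all 26 arrays, 5142 with trend and robust options and 1075 with no filter. The 388 genes for exon use became 125 with 16 added, 153 with the 75th percentile filter, 23 at a departure of 2, 715 with none and 30 with own spreads. The cause was not tested. With single arrays left out, the counts ranged over 138 to 197 for the mean, 4 to 15 at 20 min, 39 to 105 at 40 min, 153 to 659 at 60 min, 0 to 3 for change with time, 1426 to 3003 probesets and 203 to 840 genes for exon use.

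Correlations of replicate differences between groups were -0.19 to 0.23, over 0.1 in 4 of 15 pairs. The labels do not say whether arrays of the same number belong together, and these correlations cannot settle it. With the replicate block 150 genes were called over the times, 13 at 20 min, 84 at 40 min, 619 at 60 min, 0 for change with time, 2613 probesets and 372 genes for exon use. Of the values of named genes, 1044 kept their direction and side of the threshold under alternatives other than leaving out an array, 11 lost the call, 8 gained it and 2, those of CD3E and ESR2, changed sign uncalled. With single arrays left out, 1392 kept both, 25 lost the call and 11 gained it. The calls of KDR, which is dim, and of MT1X, which is not, were lost with the 75th percentile filter.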
